A study of Mus musculus with 6 samples.

Results

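Gene deserts are the longest stretches of the genome without an annotated gene. They were taken here as the intervals of at least 500 kb between neighbouring genes of any type on chromosomes 1 to 19 of mm9 (GENCODE annotation of that build), trimmed by 10 kb at both ends and cut into windows of 10 kb. The rule gave 452 deserts with 37434 windows. Of these windows, 1471 held no read in any library and were left out, and 97.7% of those were assembly gap. The remaining 35963 windows were described in all 6 libraries, beside the 238522 windows of an autosomal grid of the same size that held a read. Desert windows numbered 15.1% of that grid. The choice used gene positions and the presence of a read, and no level of any library.

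Chromatin came from the hippocampus of C57/BL6 mice aged 6 months (the strain is written C57Bl6/J in the methods). Mice of the FC group were conditioned to a context by foot shock, and those of the CON group met the context alone. The treatment field of the labels names conditioning for the CON libraries too, and the groups were taken from the titles. Each group has 3 libraries. One was precipitated by an H4K5ac antibody (H4K5ac-ChIP), another by unspecific IgG as a mock control (IgG-IP), and the last is sheared genomic DNA that was not precipitated (input). The mice were males, the hippocampus was used whole, and tissue was taken after a memory test that followed repeated training. In each group 3 hippocampal samples were cross-linked one by one. Per the methods, chromatin of each sample was precipitated, and barcoded libraries were pooled before sequencing. How the 3 samples relate to the single deposited library of each kind is not stated there. With 1 library per group and antibody there was no replicate, so no test across samples was possible. Intervals are exact 95% intervals that cover counting error only, and a ratio between FC and CON compares a pair of libraries.

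H4K5ac is an acetyl group on a lysine of the histone H4 tail. It loosens chromatin, is bound by bromodomain proteins, and is found at promoters and along the bodies of transcribed genes. Gene deserts are rich in A and T, replicate late and often lie at the nuclear lamina. Some hold distant enhancers of developmental or neuronal genes, and some are emptied by the annotation alone, where a transcript had not yet been described.

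The gene deserts spanned 385.6 Mb. Their length ran from 501 to 7199 kb with a median of 724 kb, and 104 were of 1 Mb or more. Of the 904 edges, 394 were protein-coding genes and the others were small RNAs, pseudogenes and other noncoding genes. A coding gene stood at both edges of 85 deserts and at neither edge of 143. A desert is therefore named below by the annotated gene at each edge, and the nearest coding gene is added where it lies farther out. GC content averaged 38.6% in desert windows, 42.5% in windows within gene bodies and 41.9% over the grid. CpG dinucleotides numbered 5.68, 8.86 and 8.51 per kb, in the same order. In 6 deserts fewer than 20 windows remained, among them the longest interval (Gm5591 to Gm16387, chromosome 7), of which 97.6% was assembly gap. These 6 were kept in the sums over windows and left out of the values per desert, which rest on the other 446.

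Reads are counted below once per 5′ position and strand. The 6 libraries held 11516839 to 38243819 such autosomal reads, and repeats of a position made up 11.5% to 17.9% of the autosomal reads. Density is in reads per kb, scaled to the number of such reads in the library (RPKM), so that the grid mean was 0.419 in each library. As a check of the labelled tissue, H4K5ac-ChIP was compared with input along the bodies of genes used in hippocampus. The log2 ratio was above 0 in both groups for Camk2a, Prox1, Snap25, Zbtb20, Gfap and Mbp, between 0.11 and 1.29, but Neurod6 gave -0.58 in FC and -1.01 in CON. Among genes of other tissues, Alb and Ins2 were below 0 in both groups, Myh6 and Ckm at -0.36 to 0.19, and Apoa1 at 0.64 in FC and 1.11 in CON. Over IgG-IP, Myh6 (0.79 and 0.52) and Ckm (0.88 and 0.30) stood above Snap25 (0.21 and 0.20), while Alb, Ins2 and Neurod6 were below 0. The lists therefore did not separate fully. Neurod6 rested on 24 reads of FC H4K5ac-ChIP and Apoa1 on 57, against 1440 for Camk2a.

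The 3 sequences below come from desert windows that rank highest by the ratio of H4K5ac-ChIP over input. Each is the 300 bp with the most H4K5ac-ChIP reads of both groups within one of the desert windows highest in H4K5ac over input, 1 for each of the 3 deserts that held the first 5 such windows. They were read from the plus strand of the mm9 genome, and capitals mark CpG dinucleotides. A mean stretch of 300 bp in desert windows holds 1.70 CpG.
Gm17618 to Gm4066, chr13:84894528-84894827: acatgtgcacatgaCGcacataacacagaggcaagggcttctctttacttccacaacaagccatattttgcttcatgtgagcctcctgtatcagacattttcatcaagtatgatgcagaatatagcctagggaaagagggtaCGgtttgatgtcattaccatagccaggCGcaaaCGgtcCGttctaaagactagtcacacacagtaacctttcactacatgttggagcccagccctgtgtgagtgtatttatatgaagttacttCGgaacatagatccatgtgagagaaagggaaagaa
Pabpc6 to Qk, chr17:9956990-9957289: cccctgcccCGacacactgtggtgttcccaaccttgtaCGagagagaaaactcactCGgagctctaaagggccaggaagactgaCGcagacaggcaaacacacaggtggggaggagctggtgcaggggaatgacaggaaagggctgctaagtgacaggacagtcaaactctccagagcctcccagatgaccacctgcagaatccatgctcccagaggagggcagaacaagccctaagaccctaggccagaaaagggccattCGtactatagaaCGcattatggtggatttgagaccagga
AC161816.1 to U6, chr16:39987749-39988048: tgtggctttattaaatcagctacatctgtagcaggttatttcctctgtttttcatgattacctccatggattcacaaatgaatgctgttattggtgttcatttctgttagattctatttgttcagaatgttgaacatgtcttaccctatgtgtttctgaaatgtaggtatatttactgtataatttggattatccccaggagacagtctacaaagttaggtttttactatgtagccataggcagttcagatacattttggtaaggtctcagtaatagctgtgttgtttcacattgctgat
The first stretch held 6 CpG at a GC content of 43.7%, the second 6 at 55.0% and the last none at 35.0%. Both the windows and the stretches were chosen by their H4K5ac-ChIP reads, so an excess over the controls follows from the choice and the counts are given as a description. The first drew 18 (FC) and 20 (CON) reads of H4K5ac-ChIP, against 1 and 3 of IgG-IP and 8 and 5 of input. The Pabpc6 to Qk stretch drew 29 and 29, against 2 and 0 of IgG-IP and 5 and 4 of input. The last drew 14 and 21, against 3 and 2 of IgG-IP and 4 and 2 of input. None of them stood out as a sharp summit, since each covers 3% of its window and took 6.54%, 6.502% and 6.52% of the window's H4K5ac-ChIP reads.

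Gene deserts were low in H4K5ac in both groups. Their H4K5ac-ChIP density was 0.214 RPKM in FC and 0.221 in CON, or 0.510 and 0.528 times the autosomal mean. IgG-IP lay near the mean, at 0.435 and 0.419 RPKM. Input was at 0.298 in FC and 0.392 in CON, so the input libraries differed in deserts by more than the H4K5ac-ChIP libraries did. The share of all distinct reads that fell in deserts was 7.68% (7.67 to 7.69) for FC H4K5ac-ChIP and 7.96% (7.95 to 7.97) for CON. For IgG-IP the shares were 15.6% and 15.1%, and for input 10.7% and 14.1%.

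In gene bodies (78880 windows wholly inside a gene and without a transcription start site, TSS), H4K5ac-ChIP was at 0.567 RPKM in FC and 0.575 in CON. Windows with a TSS gave 0.520 and 0.501, and intergenic windows outside deserts 0.319 and 0.317. Density of H4K5ac-ChIP thus stepped down from genes to ordinary intergenic sequence to deserts in both groups. IgG-IP stayed between 0.398 and 0.436 RPKM over these 4 classes of window.

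**Figure D1:**
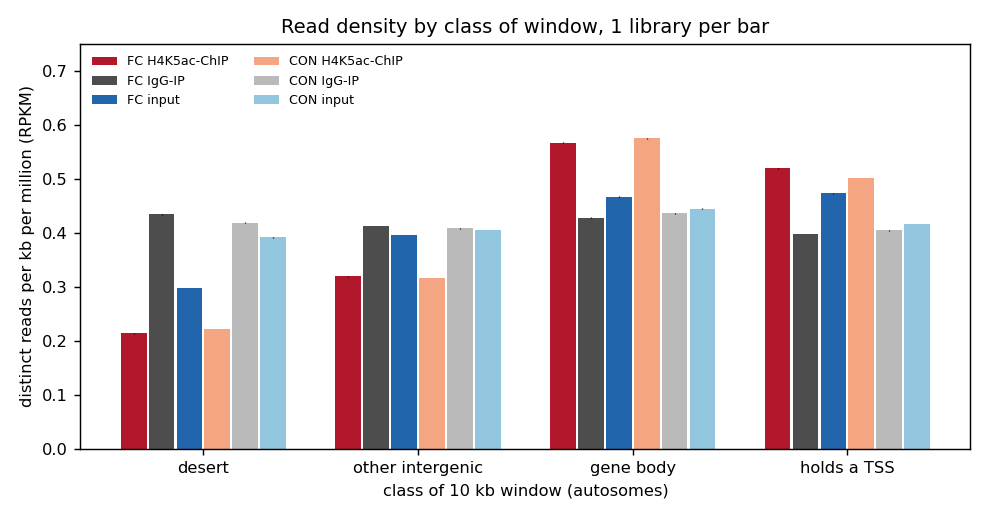
Density of reads (RPKM, y axis) in 4 classes of autosomal 10 kb window (x axis), with 1 bar per library and exact counting intervals, which are narrower than the line of the bar. H4K5ac-ChIP is lowest in deserts, at 0.214 (FC) and 0.221 (CON), while IgG-IP is between 0.398 and 0.436 in every class and input in deserts is at 0.298 (FC) and 0.392 (CON).

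On the log2 scale, H4K5ac-ChIP over input in deserts was -0.482 (-0.484 to -0.479) for FC and -0.824 (-0.826 to -0.822) for CON. Over IgG-IP it was -1.02 in FC and -0.92 in CON. The order of the groups therefore depended on the control library. Gene bodies gave 0.28 and 0.37 over input, and 0.41 and 0.40 over IgG-IP. Intergenic windows outside deserts gave -0.31 and -0.36 over input, and -0.37 and -0.37 over IgG-IP. Their GC content averaged 41.6%, against 38.6% in deserts, and was not matched. The mock library itself stood above input in deserts, by 0.54 in FC and by 0.10 in CON, so H4K5ac-ChIP over input in FC has to be read beside an input that is low there.

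A window was called rich in H4K5ac where its density was at least 1.5 times that of input in both groups and each H4K5ac-ChIP library had at least 10 reads in it. Over the grid 9.83% of windows were rich. In deserts 248 of 35963 were (0.690%), against 18.8% of gene-body windows, 16.4% of windows with a TSS and 2.92% of other intergenic windows. The lowest desert window called had a smaller fold of 1.50045, and the highest not called 1.49767. At the lower fold tried as an alternative the desert share was 2.08%, and at a fold of 2 it was 0.0667%. Where only protein-coding genes ended a desert, so that noncoding genes lay inside, it was 1.04%. The reverse call was at least 1.5-fold below input in both groups. It held for 51.1% of desert windows, against 39.0% of other intergenic windows and 28.2% of the grid. Against IgG-IP, 0.868% of desert windows were at least 1.5-fold higher in both groups (17.4% of the grid) and 74.6% at least 1.5-fold lower (35.5% of the grid). For other intergenic windows these shares were 6.77% and 46.6%.

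Deserts are AT-rich, and the libraries differed in how they covered AT-rich sequence. Over the 446 deserts the log2 ratio of FC over CON input correlated with GC content at a Spearman's rho of 0.956, given as a description of these libraries. Within steps of GC content H4K5ac-ChIP was lower in deserts than in gene bodies at every step. The part of base composition in the low density of deserts was not tested. In windows of 30% to 36% GC, desert H4K5ac-ChIP was at 0.160 RPKM in FC and 0.172 in CON, and gene bodies at 0.358 and 0.409. In windows of 46% to 52% GC the values were 0.433 and 0.414 in deserts, and 0.771 and 0.736 in gene bodies. H4K5ac-ChIP was thus higher at the higher GC content in deserts and in gene bodies, and FC was below CON at the low end and above it at the high end in both classes. The difference between deserts and gene bodies in H4K5ac-ChIP over input was -0.76 in FC and -1.19 in CON, and -0.90 and -1.01 when windows of the same GC content were compared in steps of 1%. With IgG-IP as the control and GC matched, a choice made after seeing the data, it was -1.07 in both groups.

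**Figure D2:**
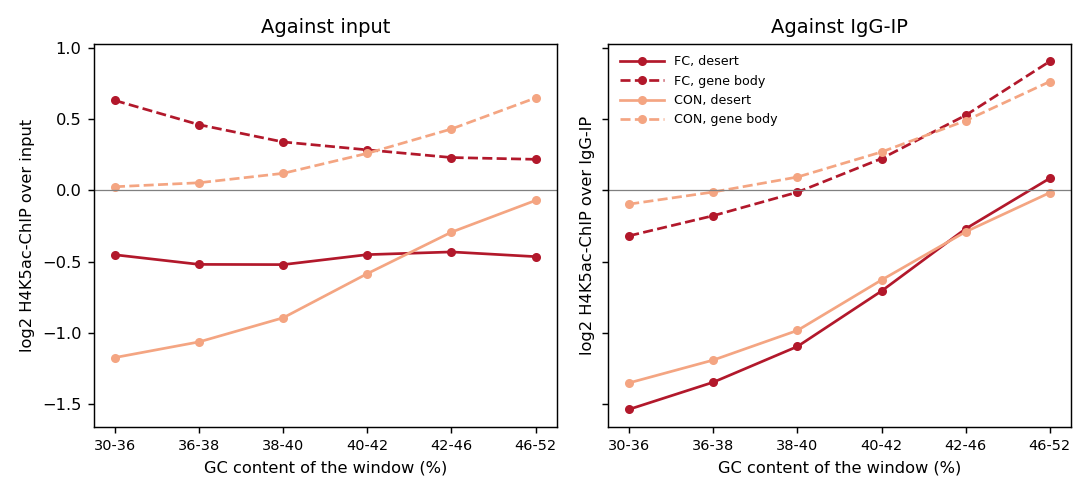
Log2 ratio of H4K5ac-ChIP over input (left) and over IgG-IP (right) by GC content of the 10 kb window (x axis, %), for desert windows (solid lines) and gene-body windows (dashed lines) in FC and CON. The desert line lies below the gene-body line of the same group at each of the 6 steps, and against input the FC and CON desert lines cross, from -0.45 and -1.17 at 30% to 36% GC to -0.46 and -0.07 at 46% to 52%.

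Deserts differed widely from one another. H4K5ac-ChIP density per desert ran from 0.0212 to 0.883 RPKM in FC with a median of 0.190, and from 0.0154 to 0.850 in CON with a median of 0.198. IgG-IP ran from 0.132 to 0.573 and from 0.119 to 0.548. The log2 ratio of H4K5ac-ChIP over input had a median of -0.61 in FC and -0.99 in CON, with standard deviations over deserts of 0.393 and 0.535. H4K5ac-ChIP exceeded input in both groups in 18 deserts and fell short of it in both in 409. Against IgG-IP, 20 deserts were above and 419 below in both groups, and 16 deserts exceeded both controls in both groups. Each library is scaled to its own autosomal total, so above and below are relative to the autosomal average. They do not show presence or absence of H4K5ac, and the same counts were not made for other intervals. H4K5ac-ChIP over IgG-IP ordered the deserts almost alike in FC and CON (Spearman's rho 0.979 over 446 deserts), and H4K5ac-ChIP over input did so less closely (0.840). These are descriptions, since the ratios of a group share its base composition and depth. Length and H4K5ac-ChIP over input had a rho of -0.138.

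**Figure D3:**
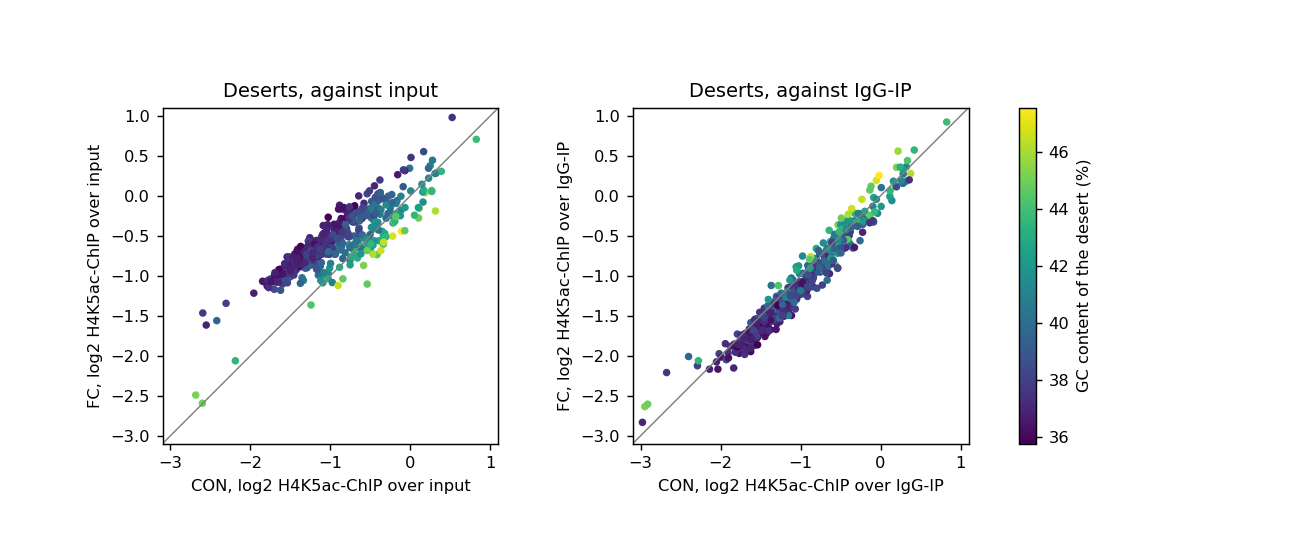
Log2 ratio of H4K5ac-ChIP over input (left) and over IgG-IP (right) for 446 deserts, with CON on the x axis, FC on the y axis, 1 point per desert coloured by GC content (%), and the line of equal values. Against input the points are scattered more widely about the line (rho 0.840) than against IgG-IP (rho 0.979).

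Neighbouring windows resembled each other over long distances, more so against IgG-IP than against the FC input. The rho of H4K5ac-ChIP over IgG-IP between windows 10 kb apart in the same desert was 0.687 in FC and 0.706 in CON, and between windows 200 kb apart it was 0.562 and 0.557. Against input the rho at 200 kb was 0.361 in FC and 0.537 in CON. Differences between whole deserts made up 57.6% of the variance of windows over IgG-IP in FC and 56.8% in CON, and 39.9% and 55.4% over input. Over desert windows the ratio to IgG-IP correlated with GC content at a rho of 0.449 in FC and 0.378 in CON. For the ratio to input this rho was -0.0685 and 0.331. The part of GC content in the likeness of windows was not tested, and other classes of window were not compared. The spread of reads was also larger than counting gives. The variance over the mean of reads per desert window, which is 1 for a Poisson count, was 25.1 in FC and 30.3 in CON for H4K5ac-ChIP, 3.85 and 4.29 for IgG-IP, and 21.5 and 7.64 for input. Beyond counting error, H4K5ac-ChIP varied by 65.3% and 65.2% of its mean in deserts, more than the 50.5% and 47.5% seen in gene bodies.

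By the rule used to name deserts, the highest H4K5ac over input averaged over the groups was found in Pabpc6 to Qk (chr17:9862570-10399335). Qk encodes Quaking, an RNA-binding protein of myelinating glia, and Pabpc6 is a poly(A)-binding protein gene. H4K5ac-ChIP was at 0.883 RPKM in FC and 0.850 in CON, IgG-IP at 0.466 and 0.479, and input at 0.542 and 0.480. Its H4K5ac-ChIP therefore exceeded the mean of gene bodies in both groups, and both controls by a wide margin. Over input its log2 ratio was 0.71 (0.67 to 0.74) for FC and 0.82 (0.78 to 0.87) for CON, and over IgG-IP 0.92 and 0.83. Of its 51 windows, 20 were rich. Rich windows are called by the same ratio that named this desert and the next ones below, so their high number follows in part from the choice. Its GC content of 43.8% was above the desert mean.

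The next was U6 to AC124193.1 (chr16:40306426-41217857), an interval with no coding gene at either edge. The nearest are Lsamp, 315 kb to the right, which encodes the limbic system-associated membrane protein, an adhesion molecule of neurons, and Igsf11, 1279 kb to the left. H4K5ac-ChIP was at 0.565 RPKM in FC and 0.619 in CON, IgG-IP at 0.493 and 0.482, and input at 0.287 and 0.431. Its ratio to input came to 0.98 (0.94 to 1.02) for FC and 0.52 (0.49 to 0.56) for CON, but over IgG-IP 0.20 and 0.36, where the desert took rank 9 in place of 2. It held 35 rich windows of 89, more than any other desert, at a GC content of 37.5%. The neighbouring desert AC161816.1 to U6 (chr16:39455249-40306331), which has the same nearest coding genes, held 11 of 83. Chromosome 16 was the highest of the 19 autosomes in desert H4K5ac over input, at -0.14 in FC and -0.47 in CON. Without these 2 deserts it was at -0.26 and -0.58.

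A further 3 deserts complete the highest 5. Gm7488 to Tbl1xr1 (chr3:20949171-21975573) borders a gene for a subunit of the NCoR corepressor and gave 0.44 in FC and 0.28 in CON over input, with 16 rich windows of 100. SNORA17 to Atp2b1 (chr10:97207519-98377785) borders the gene of a plasma membrane calcium pump and gave 0.55 and 0.17, with 11 of 115. U6 to Rpl10-ps3 (chr9:49634081-50152344) begins 27.1 kb from Ncam1, the neural cell adhesion molecule gene, and gave 0.31 and 0.39, with 7 of 49. Each of the 3 was also above IgG-IP in both groups, between 0.11 and 0.57. A later annotation (RefSeq on GRCm38) places no further coding gene between the coding genes nearest to 4 of these 5 deserts, but further long noncoding RNAs, 4 for Pabpc6 to Qk, 5 for U6 to AC124193.1, 6 for Gm7488 to Tbl1xr1 and 3 for U6 to Rpl10-ps3. The nearest coding genes of SNORA17 to Atp2b1 were not both matched in it. Only the order of genes was compared, so a nearest gene whose later model reaches into a desert would not be seen.

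The 248 rich windows were concentrated. They lay in 66 deserts, and the 5 deserts with the most held 101 of them (40.7%). Besides those named, Gm5257 to 5S_rRNA (chr1:75633755-77141327) held 19 of 148 windows. Its nearest coding genes are Slc4a3 and Epha4, an ephrin receptor gene 222 kb away. Nav3 to E2f7 (chr10:109437276-110182494), between a gene for a microtubule-binding protein of neurons and a gene for a cell cycle repressor, held 11 of 72. The rich windows formed 168 runs of adjacent windows, of which 126 were single windows. The longest run spanned 90 kb (chr16:40436426-40526425, U6 to AC124193.1), the next 80 kb in the neighbouring desert and then 70 kb in Pabpc6 to Qk. Runs were called against input, and only part of the windows of the longest were also at least 1.5-fold over IgG-IP in both groups. In its window centred 215 kb from the desert's left edge, FC H4K5ac-ChIP (0.5146 RPKM) was below FC IgG-IP (0.5297). In CON it was above, at 0.6655 against 0.4754. The window centred at 205 kb had 0.8666 against 0.4341 in FC and 0.8199 against 0.4462 in CON. Of the 248, 148 were also at least 1.5-fold over IgG-IP in both groups. The same overlap was not counted for rich windows of the grid. GC content averaged 41.0% in rich windows and 38.6% in the other desert windows, with 7.33 and 5.66 CpG per kb.

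**Figure D4:**
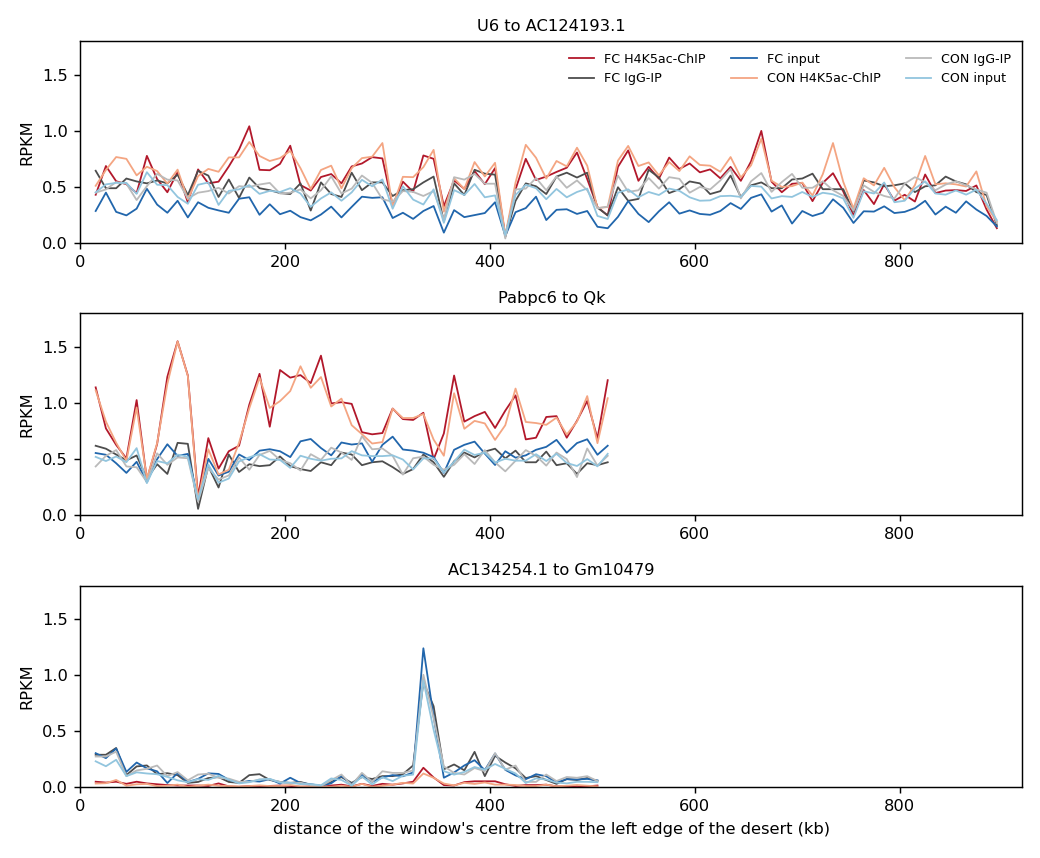
Density of reads (RPKM, y axis) in each 10 kb window along 3 deserts, by distance of the window from the desert's left edge (kb, x axis), with 1 line per library. H4K5ac-ChIP of both groups runs above the controls along most of Pabpc6 to Qk with a top of 1.55 RPKM, stays above input in broad stretches of U6 to AC124193.1, and reaches a top of only 0.170 RPKM in FC along AC134254.1 to Gm10479, where a single peak appears in input and IgG-IP.

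The 5 desert windows highest in H4K5ac over input lay 90 kb or more from any annotated gene. They were chosen by this ratio, so it is favoured to be high and its intervals do not allow for the choice. The first was chr13:84885078-84895077 in Gm17618 to Gm4066, 270 kb from the nearer gene, with 218 (FC) and 363 (CON) reads of H4K5ac-ChIP. Input had 97 and 121 reads there, and IgG-IP 50 and 62. FC gave a log2 ratio over input of 1.70 (1.35 to 2.06) and CON one of 1.503 (1.202 to 1.81). The adjacent window gave 1.59 and 1.51, at 244 and 314 H4K5ac-ChIP reads. Together they are a stretch of 20 kb in a desert where only 4 of 59 windows were rich, and the whole desert gave 0.32 and -0.09. In Pabpc6 to Qk the top window, chr17:9952570-9962569, held 410 and 482 H4K5ac-ChIP reads, the largest numbers of the 5. It lies 90 kb from Pabpc6 and gave 1.56 and 1.53 over input. The window at chr16:39985249-39995248 gave 1.67 and 1.08 over input, and 0.78 and 0.66 over IgG-IP, so its excess was smaller against the mock library. A further window of Pabpc6 to Qk, 200 kb from its nearer gene, had H4K5ac-ChIP at 1.23 RPKM in FC and 1.11 in CON, over input at 0.515 and 0.419.

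At the other end, the lowest H4K5ac over input was found in AC134254.1 to Gm10479 (chr12:19897917-20421798). H4K5ac-ChIP was at 0.0232 RPKM in FC and 0.0183 in CON, IgG-IP at 0.141 and 0.138, and input at 0.140 and 0.111. All 6 libraries were thus low, and H4K5ac-ChIP was the lowest. The ratio over input was -2.59 (-2.77 to -2.42) and -2.60 (-2.79 to -2.42). Gm3944 to Gm5784 (chr12:18860063-19393664), on the same chromosome, gave -2.49 and -2.68 with 0.0212 and 0.0154 RPKM of H4K5ac-ChIP. BC048507 to Mtrr (chr13:67964857-68699656), next to the methionine synthase reductase gene, gave -2.06 and -2.19. In these 3 deserts GC content was 43.5% to 45.1%, above the desert mean, and the IgG-IP density was 0.119 to 0.202 RPKM, below that of most deserts. With reads of a mapping quality of at least 20 alone, the ratio over input was -2.81 and -2.85 in AC134254.1 to Gm10479, -2.66 and -2.79 in Gm3944 to Gm5784, and -2.26 and -2.35 in BC048507 to Mtrr. The share of each desert where reads can be placed was not analysed here. In the same later annotation, 7 further coding genes stand between the coding genes nearest to AC134254.1 to Gm10479, in a span that can be longer than the desert, so it may not be empty of genes.

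The remaining 2 of the lowest 5 were AT-rich. Gm20516 to AC168268.1 (chr17:38782596-39597274) had H4K5ac-ChIP at 0.0670 RPKM in FC and 0.0569 in CON, with IgG-IP at 0.477 and 0.448 and input at 0.205 and 0.334. Here the mock library was above its mean over deserts, and its ratio to that library, -2.83 for FC and -2.98 for CON, was the lowest of all 446 when averaged over the groups. Gm6584 to Gm8837 (chr6:130357952-131080813) begins 21.1 kb from Klra1, a gene for a receptor of natural killer cells, and gave -1.47 over input in FC and -2.60 in CON. Its H4K5ac-ChIP was at 0.0551 and 0.0407 RPKM, and its input at 0.152 and 0.246. IgG-IP, at 0.255 and 0.260, was below that of most deserts. Here too the later annotation places further coding genes between the nearest coding genes, 6 of the Esp family around Gm20516 to AC168268.1 and 5 around Gm6584 to Gm8837. It places none between those of BC048507 to Mtrr, and those of Gm3944 to Gm5784 were not both matched.

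The 5 desert windows with the most input reads were chosen by input, so their ratio to input is favoured to be low and is not given. The window with the most input reads of both groups together (chr12:75897382-75907381, Gm11042 to Kcnh5) had 4.31 and 3.64 RPKM of IgG-IP, 1.16 and 1.98 of input, and 1.08 and 1.01 of H4K5ac-ChIP. Its high H4K5ac-ChIP was below the mock library, at a log2 ratio of -1.998 in FC and -1.86 in CON. The second, in AC134254.1 to Gm10479, had 474 and 279 input reads, 108 and 137 of IgG-IP and 45 and 37 of H4K5ac-ChIP.

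The 5 longest of the 446 deserts were more alike. Olfm4 to U1 (chr14:80422668-82784172, 2361505 bp) lies between the gene of a secreted glycoprotein and, 2059 kb beyond the desert, the protocadherin gene Pcdh17. It had H4K5ac-ChIP at 0.218 RPKM in FC and 0.227 in CON, IgG-IP at 0.433 and 0.412, and input at 0.267 and 0.384. H4K5ac-ChIP was therefore close to the mean over all desert windows. Y_RNA to Cdc73 (chromosome 1) had 0.194 and 0.240 of H4K5ac-ChIP, D3Ertd751e to 7SK (chromosome 3) 0.171 and 0.182, SNORA17 to U6 (chromosome 10) 0.196 and 0.208, and Gm15501 to 7SK (chromosome 7) 0.155 and 0.165. Over IgG-IP they gave -0.97 to -1.44 in FC and -0.64 to -1.33 in CON. Of their windows, 1 was rich, in Olfm4 to U1.

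Within deserts H4K5ac was lower at larger distance from the nearer gene. At 10 to 50 kb it was at 0.236 RPKM in FC and 0.243 in CON, and beyond 500 kb at 0.175 and 0.186. IgG-IP changed little over the same range, from 0.432 to 0.430 in FC and from 0.418 to 0.410 in CON. The log2 ratio over IgG-IP went from -0.87 to -1.30 in FC and from -0.78 to -1.14 in CON. Over input it went from -0.71 to -1.01 in CON, but only from -0.45 to -0.51 in FC, where input went from 0.323 to 0.249 RPKM. GC content went from 39.4% to 37.3% alongside, and its part in the difference was not tested. Only long deserts reach beyond 500 kb. In the 104 deserts of 1 Mb or more, H4K5ac-ChIP went from 0.209 to 0.175 in FC and from 0.217 to 0.186 in CON, so the difference was there as well. The share of rich windows did not follow it step by step. It was 0.724%, 0.648%, 0.823%, 0.639% and 0.35% from the nearest to the farthest step.

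**Figure D5:**
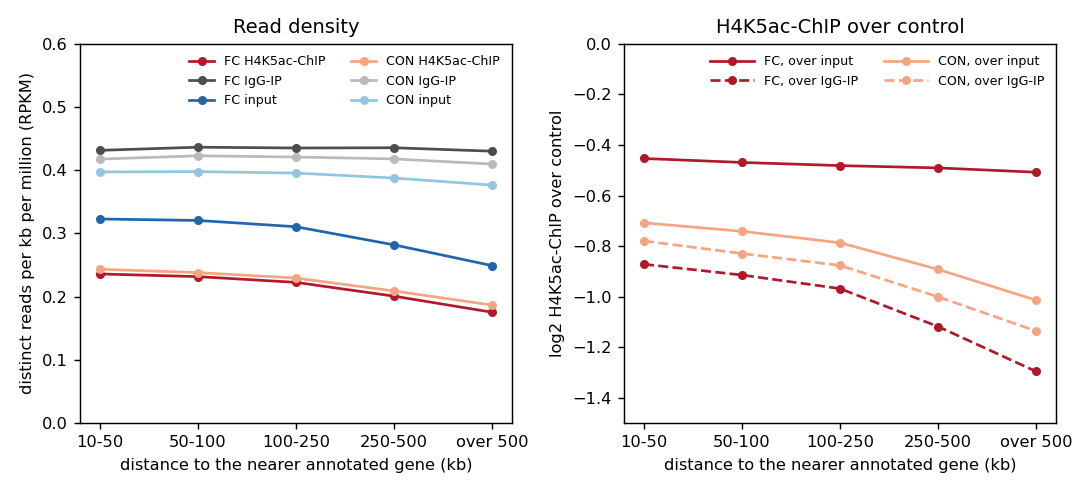
Density of reads (RPKM, left) and log2 ratio of H4K5ac-ChIP over input (solid) and over IgG-IP (dashed; right) in desert windows by distance to the nearer annotated gene (x axis, kb, 5 steps), for FC and CON. H4K5ac-ChIP goes from 0.236 to 0.175 RPKM in FC and from 0.243 to 0.186 in CON, IgG-IP stays near its level, and the FC input goes from 0.323 to 0.249.

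H4K5ac differed more between coding and noncoding edges than between starts and ends of coding genes. Within 100 kb of an edge where a coding gene ends, H4K5ac-ChIP was at 0.272 RPKM in FC and 0.278 in CON (214 edges), and where one starts, at 0.262 and 0.270 (178 edges). At noncoding genes and pseudogenes it was at 0.207 and 0.214 (509 edges). The log2 ratio over IgG-IP was -0.68 and -0.62 at ends, -0.74 and -0.65 at starts, and -1.06 and -0.96 at noncoding edges. Rich windows made up 0.994%, 1.002% and 0.439%, and GC content averaged 40.4%, 39.7% and 38.6%, in the same order.

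The genes that border deserts were also described by lists, using the nearest coding gene on either side. Genes of adhesion and guidance families (cadherins, protocadherins, contactins, ephrin receptors and others) stood next to 99 deserts, through 56 genes. The list was set by family name and is not complete (Unc5d, Efnb2 and Dcc, for example, are not in it), so its values describe those 99 deserts alone. Some members, such as Cdh5 of vascular endothelium, are known from other cells than neurons. Over input these had a median of -0.65 in FC and -1.12 in CON, and over IgG-IP -1.43 and -1.32, against -0.61, -0.99, -1.23 and -1.09 over all 446. Their medians were lower than those of all deserts by each measure, at a median GC content of 37.2% against 38.2%. A rich window was found in 10 of the 99 (10.1%), against 66 of all 446 (14.8%). By windows the order was the other way, with 83 rich windows of 8905 (0.932%) against 0.691% over all 446. These 83 lay mostly in the 2 deserts next to Lsamp, in the Epha4 desert and in the Ncam1 desert, and 4 lay in the desert next to Cdh5. A list of developmental transcription factors, set by family name and not complete (Hand2 and Shox2, for example, are not in it), met 28 deserts through 25 genes such as Satb1, Zic1 and Sox2. Its values describe those 28 deserts alone. Over input their median was -0.81 in FC and -0.83 in CON, and over IgG-IP -0.87 and -0.92. In FC they were thus below the median of all deserts against input and above it against IgG-IP, at a median GC content of 41.0%. A rich window was found in 6 of the 28 (21.4%), a larger share of deserts but a smaller share of windows than over all 446, with 8 such windows of 1909 (0.419%), of which 3 lay in Gm13018 to Prdm2 and 1 in each of the other 5, which include the deserts next to Mef2c and Satb1. A list of olfactory, vomeronasal and trace amine receptors, without taste receptors, met 1 desert, Olfr1505 to Tle4, which gave 0.01 and -0.23 over input and held 1 rich window.

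Whether deserts are empty depends on the annotation. The symbols of both nearest coding genes of 393 of the 446 deserts were found in a later annotation (RefSeq on GRCm38), which was used only for the order of genes. Between these genes, a span that can be longer than the desert, it places a further coding gene in 25. In the other 368 it places none, and in 40 of those it places no long noncoding RNA either. The order of genes cannot show whether a nearest gene itself was extended into a desert. The windows of those 40 gave -0.59 over input in FC and -1.07 in CON with 4 rich windows (0.129%). The 368 without a new coding gene gave -0.48 and -0.81 with 212 rich windows (0.714%), and the 25 with one gave -0.58 and -0.98 with 9 (0.436%).

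Scaled to the reads of each library, H4K5ac-ChIP density in deserts differed little between FC and CON. This scaling removes any change shared by the whole genome, so the amount of H4K5ac is not compared. By Western blot the paper reports more H4K5ac after the memory test than in controls. Per the paper, the blot's controls were taken after the context on the first day. The control mice of the libraries were re-exposed to it on the day of the test. The log2 ratio of H4K5ac-ChIP in FC over CON was -0.0511 (-0.0538 to -0.0484) over desert windows, with 0.05 for IgG-IP and -0.39 for input. Gene bodies gave -0.02 for H4K5ac-ChIP and windows with a TSS 0.05. Measured against gene-body windows of the same GC content in place of the autosomal total, the FC over CON ratio of deserts was 0.0537, so its sign was not the same under both references. Per desert, H4K5ac-ChIP had a median of -0.05 with a standard deviation of 0.113, against a median counting error of 0.031. It was higher in FC in 145 deserts and lower in 301. By the same count IgG-IP was higher in 371 and lower in 75, and input higher in 55 and lower in 391. These counts rest on the scaling to the autosomal total. They were not made for other intervals or against gene-body windows. IgG-IP had a standard deviation of 0.0551 and input 0.292, so the spread of H4K5ac-ChIP was larger than that of the mock library and smaller than that of input.

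Of the 32387 desert windows with at least 50 H4K5ac-ChIP reads in both libraries together, 815 (2.52%) were at least 1.5-fold higher in FC and 1477 (4.56%) at least 1.5-fold lower. Over all such windows of the grid the shares were 1.53% and 1.87%, and in gene bodies 0.490% and 1.09%. Desert windows hold fewer H4K5ac-ChIP reads, which widens counting error, and its part in these shares was not tested. Between windows of the same desert the rho of this ratio was small at short and long distance, 0.127 at 10 kb and 0.0938 at 200 kb. How far counting error lowers it was not tested.

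The deserts with the highest FC over CON ratio were also among the lowest in H4K5ac. Deserts at either end were chosen by this ratio, so its size is favoured and the intervals do not allow for the choice. Gm3944 to Gm5784 gave 0.46 (0.21 to 0.71), Gm6584 to Gm8837 0.44 (0.31 to 0.57) and U1 to Tsn (chr1:119433042-120195093), next to the gene of the nucleic acid-binding protein translin, 0.42 (0.30 to 0.54). In U1 to Tsn, H4K5ac-ChIP was at 0.0625 RPKM in FC and 0.0468 in CON, IgG-IP at 0.252 and 0.247, and input at 0.185 and 0.251. The later annotation places 1 further coding gene between its nearest coding genes. In the same 3 deserts IgG-IP gave 0.15, -0.03 and 0.03, and input 0.27, -0.69 and -0.44. At the other end, SNORA17 to Klf6 (chr13:5189181-5860734), next to a zinc finger transcription factor gene, had H4K5ac-ChIP at 0.257 RPKM in FC and 0.321 in CON, a ratio of -0.32 (-0.38 to -0.27). Gm11263 to Gm11409 (chromosome 4), at 0.123 and 0.153 RPKM, and Clec14a to Gm17529 (chromosome 12), at 0.225 and 0.279, each gave -0.31. IgG-IP was 0.05 to 0.06 in these 3 deserts, and input -0.33 to -0.70. With 1 library per group, the difference between animals and the difference between groups cannot be told apart in any of them.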

How the data were processed

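The deposited files hold 1 aligned read per line. Per the study's methods, the authors sequenced 50-bp SOLiD reads and aligned them to mm9 with Bioscope. The deposited score of a read is its mapping quality, from 4 to 100, and was used only in an alternative. Nothing was normalized before deposit. From the reads, 5′ ends were counted per 10 kb window in Python 3.11.15 (pandas 2.3.3, NumPy 2.4.6, SciPy 1.17.1; plots in matplotlib 3.10.9). A ratio compares reads scaled to the distinct autosomal reads of each library, with the exact (Clopper-Pearson) binomial interval. For correlations between windows 0.5 reads were added to each count. The code was tested on simulated data. Depth, given beside the first results, limits single windows more than whole deserts. Reads without molecular identifiers are not independent molecules, so intervals cover counting error only.

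Deserts and windows were named by a rule: the 5 longest, the 5 highest and 5 lowest in H4K5ac-ChIP over input averaged over FC and CON, the 3 highest and 3 lowest in FC over CON, the 5 rich windows with the highest ratio and the 5 windows with the most input reads. The intervals of those named by a ratio do not allow for this choice. Other deserts were named after their values were seen. The members and lists were chosen with earlier results of these data known, and the gene nearest to a desert was extended to the nearest coding gene after the edges were seen. The share of repetitive sequence in the windows was not analysed here.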

Additional observations from a re-analysis of the deposited data

How the results depend on the processing

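H4K5ac-ChIP over input in deserts stayed below 0 in both groups under every alternative that was run. It was -0.49 in FC and -0.81 in CON with all deposited reads, -0.52 and -0.87 with a mapping quality of at least 20, -0.50 and -0.96 for deserts of at least 1 Mb, -0.49 and -0.85 with a trim of 100 kb, and -0.45 and -0.75 with protein-coding genes only. Without the 1% of windows densest in input it was -0.84 in CON, and -0.81 in CON without a new coding gene in the later annotation. H4K5ac-ChIP over IgG-IP was -0.98 and -0.88 with all reads, -1.10 and -0.97 with the mapping quality minimum, and -1.04 and -0.93 without the densest windows. IgG-IP over input was 0.49 and 0.0714, 0.59 and 0.10, and 0.56 and 0.10 under the same 3 settings.

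The difference between deserts and gene bodies over input was -0.78 in FC and -1.20 in CON with all reads, -0.80 and -1.25 with the mapping quality minimum, -0.78 and -1.32 for deserts of at least 1 Mb, -0.77 and -1.22 with a trim of 100 kb, -0.73 and -1.11 with protein-coding genes only, -0.77 and -1.20 without the densest windows, and -0.90 and -1.01 within steps of GC content. With IgG-IP in place of input, chosen after seeing the data, it was -1.43 and -1.32, and with GC content matched as well -1.07 and -1.07.

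FC over CON H4K5ac-ChIP was -0.0598 with all reads, -0.0722 with the mapping quality minimum, -0.0672 for deserts of at least 1 Mb, -0.0541 with a trim of 100 kb, -0.0437 with protein-coding genes only and -0.0338 when libraries were scaled outside the 10% most covered windows. It turned to 0.0537 within steps of GC content, where by construction it is the desert ratio less that of gene-body windows. The share of rich desert windows was 1.04% with protein-coding genes only, 2.08% at the lower fold tried and 0.0667% at a fold of 2, and it was within 1.5 times of the share given under the other settings run. For named deserts, 76 values of H4K5ac-ChIP over input, with all reads or the mapping quality minimum, had the direction given, and their other ratios were not recomputed.

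No paired analysis was possible because the labels give no replicate numbers and each group has 1 library per antibody. Without replicates, the spread between animals is unknown. Counting error limits single windows, and the FC input, low in AT-rich sequence, limits ratios to input.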
